A study of Mus musculus with 6 samples.

Results

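The genes described here encode histone variants made outside the bulk histone supply of S phase, together with a pair of linker histones also made outside it. They were taken as the rows of the expression table whose Ensembl identifier carries one of 10 symbols, *H2afz*, *H2afv*, *H2afx*, *H2afj*, *H2afy*, *H3f3a*, *H3f3b*, *Cenpa*, *H1f0* and *H1fx*. All 10 were found among the 55774 genes of the table, and 9 were tested, having reached an FPKM of 1 in 3 or more libraries. *H1fx* did not. FPKM are fragments per kilobase of transcript, scaled to a common number of sequenced fragments.

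The study asked what oviductal extracellular vesicles (oEVs) from women with endometriosis do to the preimplantation embryo. Wild-type embryos from the oviducts of female ICR mice aged 6 to 8 weeks were cultured for 75 hours in CZB medium with vesicles from human Fallopian tube fluid. RNA was then sequenced from 6 pools of 10 blastocysts each. In 3 pools the vesicles came from women with endometriosis (oEV-EMT), and in the other 3 from women without it (oEV-ctrl). For the oEV-ctrl donors the sample labels name uterine fibroids and the methods of the study name cervical intraepithelial neoplasia. Both groups received human vesicles, and no library of embryos without vesicles was analysed here. Each library is a pool of embryos, so the p-values measure the spread between pools and not between single embryos, donors or mice.

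A nucleosome wraps DNA around an octamer of the core histones H2A, H2B, H3 and H4, and a linker histone H1 binds where the DNA enters and leaves. Replication-dependent histones are made in S phase from clustered genes whose mRNAs end in a stem-loop without a poly(A) tail. Variant histones come mostly from genes outside these clusters, whose mRNAs are polyadenylated, although *H2afx* is known to give both a stem-loop and a polyadenylated mRNA. Many of them are placed into chromatin by dedicated chaperones, outside S phase as well. In the early mouse embryo, where the chromatin of both gametes is rebuilt, the variants H3.3 and H2A.Z and the linker histones are known to be exchanged on a large scale.

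The libraries differed in depth by up to 2.07 times, as derived from the steps in their low values, and neither group was the deeper throughout. Trophectoderm markers (8 of 8), epiblast and inner cell mass markers (5 of 5) and primitive endoderm markers (4 of 4) were all expressed highly enough to be tested, and these are the lineages of a blastocyst. The cumulus and granulosa markers *Ptx3*, *Amh* and *Fshr*, the ciliated oviduct marker *Foxj1*, the blood markers *Hbb-bs* and *Ptprc* and the oocyte marker *Oosp1* were listed at 0 in every library. Between the groups, the summed FPKM of the 5 epiblast markers did not overlap, at 82.0 to 103 in oEV-EMT and 34.98 to 63.6 in oEV-ctrl. Most of that sum was *Nanog* and *Pou5f1*, which with *Fgf4* did not overlap between the groups, whereas *Klf4* overlapped and so did *Sox2*, with a log2 fold change of -0.32. The summed FPKM of the 6 oocyte markers did not overlap either, at 3.86 to 6.93 against 2.35 to 3.31, and came almost wholly from *Zp2* and *Zp3*, with *Gdf9*, *Bmp15* and *Zp1* at means of 0.0886, 0.00796 and 0.00718. Of the cumulus and granulosa markers 0 of 5 reached the filter for testing, with *Has2* and *Tnfaip6* at means of 0.10 and 0.04 FPKM. Of the oviduct epithelium markers 1 of 4 reached it, *Epcam*, which trophectoderm expresses too. *Ovgp1* and *Pax8* had means of 0.15 and 0.07. Of the blood markers 1 of 3 reached it, *Hba-a1*, which was above 0 in every library with a mean of 1.08. The sums of the trophectoderm and the primitive endoderm markers overlapped. Gene by gene, each trophectoderm marker overlapped, with log2 fold changes from -0.39 (*Eomes*) to 0.67 (*Elf5*). Of the primitive endoderm markers, *Gata4* was higher in oEV-EMT without overlap, at 0.82. *Gata6*, *Sox17* and *Pdgfra* overlapped, at -0.19, 0.96 and 0.08. The part of these differences in the results below was not tested, and in pooled embryos fewer cells of a type cannot be told apart from less RNA per cell.

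Over the 11924 genes tested, 0 passed both thresholds of the study, which are 0.05 for the adjusted p-value and 1 for the size of the log2 fold change (limma on log2(FPKM + 1) with Benjamini-Hochberg adjustment). This background is 0% of genes, and of the 9 members tested 0 passed. The study applied these thresholds to another test, DESeq2, and reported differentially expressed genes in both directions. The 0 here belongs to limma on this scale and does not restate the calls of the study. By an unadjusted p-value up to 0.05, 3 of the 9 members were higher in oEV-EMT, *H2afx*, *H2afv* and *Cenpa*, against a background of 12.8% of all genes. In the other direction it was 0 of the 9, against 2.55%. In these same 3 genes every oEV-EMT library lay above every oEV-ctrl library, as in 18.1% of all genes, and in *H2afy* every one lay below, as in 4.34%. With so few members these counts are a description and say nothing particular to them.

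The median log2 fold change of all genes was 0.17 in the deposited values, with -0.28 and 0.64 as the 10th and 90th percentiles. After median-of-ratios scaling, which sets the libraries to a common level by their typical gene, that median was 0.02, and by the same unadjusted p 794 genes were higher and 746 lower in place of 1527 and 304. Of the members, *H2afx* was then higher with an unadjusted p-value of 0.0127 and *H2afy* lower with one of 0.0341, while *H2afv* at 0.156 and *Cenpa* at 0.177 were no longer under 0.05 (limma). A single unannotated row, new_gene48, held 15.3% to 19.0% of the summed FPKM in oEV-EMT and 19.7% to 31.5% in oEV-ctrl, the highest share in oEV-ctrl 1, and its part in the shift of the median was not tested. For the members and for the medians of lists, values relative to the median of all genes are therefore given beside the direct ones. The median of the 9 members was 0.16, or -0.02 relative to all genes.

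**Figure D1:**
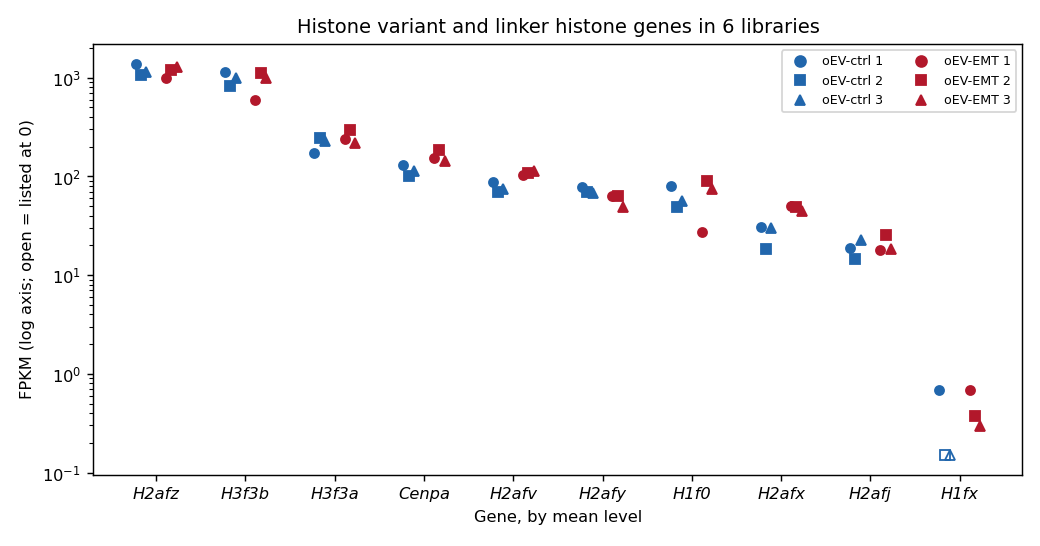
FPKM of the 10 genes in each library on a log axis, ordered by mean level, with oEV-ctrl in blue, oEV-EMT in red and the marker shape giving the library number. *H2afz* and *H3f3b* are the highest in every library, *H1fx* is below 1 in every library, and the groups separate for *Cenpa*, *H2afv*, *H2afy* and *H2afx*.

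H2A.Z is the H2A variant that SRCAP and EP400 complexes exchange into nucleosomes at promoters. It is encoded by a pair of genes, *H2afz* for H2A.Z.1 and *H2afv* for H2A.Z.2. *H2afz* (ENSMUSG00000037894) is on chromosome 3 of GRCm38, plus strand, from 137864487 to 137866922, and *H2afv* (ENSMUSG00000041126) on the minus strand of chromosome 11 from 6427229 to 6444443. Because the ratio of these genes within a library did not overlap between the groups, the bases just before their starts are shown, from the RefSeq promoter table of build GRCm38.p6. Each run is read 5′ to 3′ along the gene and holds only bases outside annotated exons. Capitals mark the letters CCAAT or GGGCGG on either strand, the core letters of a CCAAT box and of a GC box. The *H2afz* stretch is chr3:137864375-137864486 on the plus strand and the *H2afv* stretch is chr11:6444444-6444693 on the minus strand.

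H2afz: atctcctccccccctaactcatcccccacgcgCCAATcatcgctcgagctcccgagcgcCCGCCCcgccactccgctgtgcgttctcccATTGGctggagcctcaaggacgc

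H2afv: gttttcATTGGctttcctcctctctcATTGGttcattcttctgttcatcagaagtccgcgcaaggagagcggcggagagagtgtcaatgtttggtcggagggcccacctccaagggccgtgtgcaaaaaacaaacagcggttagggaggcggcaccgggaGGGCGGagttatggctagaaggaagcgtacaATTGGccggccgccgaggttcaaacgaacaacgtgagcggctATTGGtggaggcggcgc

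In the 250 bases before the start, CCAAT occurs 2 times for *H2afz* and 4 times for *H2afv*, on either strand, and GGGCGG occurs 1 time for each. Of all 32851 promoters in the table, 33.8% hold CCAAT at least once, 10.1% at least 2 times and 0.84% at least 4 times, and 32.7% hold GGGCGG. The 9 members with an entry differ in these letters. CCAAT was found in 6 of them, with 4 copies in *H3f3b*, 3 in *H2afj*, 2 in *Cenpa* and 1 in *H3f3a*. GGGCGG was found in 6, with 4 copies in *H3f3a* and 2 each in *H2afj* and *H2afy*. TATAAA was found in *H3f3b* alone among them, where 12.4% of all promoters hold it on either strand. The members with an entry whose groups did not overlap, *H2afv*, *Cenpa* and *H2afy*, had no motif in common. The counts over 250 bases include annotated exons. The longest stretch outside exons was 36 bases for *H3f3b*, with 0 of these motifs, and 0 bases for *H1f0* and *H1fx*. For *H3f3b*, *H3f3a* and *H2afy* that stretch lies inside the span of the gene given below, so their counts are in part of transcribed sequence. For *Cenpa* the last 109 of the 250 bases lie inside the gene span, and the stretch outside exons holds 0 of its 2 CCAAT copies. Such matches describe letters, not bound sites.

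The FPKM of *H2afz* was 1003, 1200 and 1300 in oEV-EMT libraries 1, 2 and 3 and 1393, 1069 and 1152 in oEV-ctrl libraries 1, 2 and 3, the order used throughout. The groups overlapped, with the highest value in an oEV-ctrl library and the lowest in an oEV-EMT library. By mean FPKM it ranked 131 among the genes tested. Its log2 fold change was -0.04 (SE 0.19, 95% interval -0.47 to 0.38, adjusted p = 0.930 from limma), or -0.22 relative to all genes.

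For *H2afv* the FPKM was 105, 109 and 113 in oEV-EMT and 87.1, 69.9 and 74.4 in oEV-ctrl. Every oEV-EMT library lay above every oEV-ctrl library, and the oEV-EMT values were close to each other. The log2 fold change was 0.49 (SE 0.19, 95% interval 0.08 to 0.91), or 0.32 relative to all genes. The unadjusted p-value was 0.0247 and the adjusted one 0.258 (limma), so the difference did not pass the test over all genes. By stretches of 50 bases, 0 other rows share 10% of their own sequence with *H2afv*. Of the stretches of *H2afz*, 30.9% also occur in *Tmcc1*, where they are 3.06% of its own. *Tmcc1* had a mean of 170 FPKM and a log2 fold change of -0.04 (adjusted p = 0.939 from limma), so the level of *H2afz* and its ratios are uncertain as far as reads of these stretches were assigned to either gene.

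Within a library, the ratio of *H2afz* to *H2afv* does not depend on how libraries are scaled to each other. It was 9.59, 11.0 and 11.6 in oEV-EMT and 16.0, 15.3 and 15.5 in oEV-ctrl. The 3 oEV-ctrl ratios lay close together, and every oEV-EMT ratio lay below them. On the log2(FPKM + 1) scale the means were 3.41 ± 0.14 and 3.94 ± 0.04 (SD, n = 3 libraries each; exact two-sided permutation test, p = 0.1, adjusted p = 0.2 over 4 ratios). The difference was -0.54 with an SE of 0.08, and 0.1 is the smallest p that 3 libraries against 3 allow. As a share of the summed FPKM of the 5 H2A variant genes, *H2afv* held 8.44%, 7.52% and 7.38% in oEV-EMT against 5.42%, 5.64% and 5.53% in oEV-ctrl. *H2afz* held the most in every library, from 80.9% to 86.7%.

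**Figure D2:**
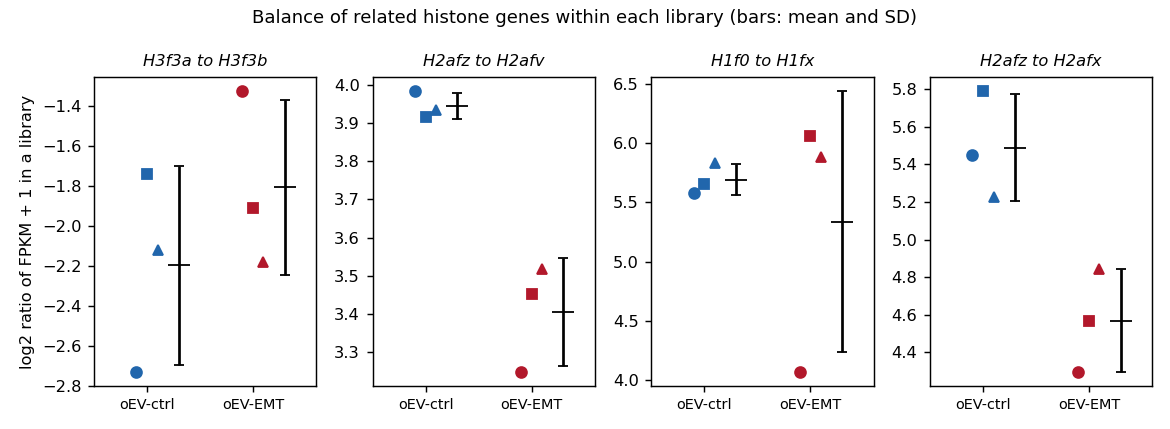
The log2 ratio of FPKM + 1 of a pair of related genes within each library, 1 panel per pair, each with its own vertical scale that does not start at 0. Points are libraries and the bars beside them the mean and SD of 3. The groups separate for *H2afz* to *H2afv* and for *H2afz* to *H2afx* and overlap for the other two pairs.

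H2AX is the H2A variant that the kinases ATM and ATR phosphorylate around DNA breaks. Its gene *H2afx* (ENSMUSG00000049932) is a single exon on the plus strand of chromosome 9 from 44334694 to 44336077, and *Gm44335* overlaps it on the opposite strand. The FPKM was 50.1, 49.6 and 44.4 in oEV-EMT and 30.9, 18.3 and 29.9 in oEV-ctrl. All oEV-EMT libraries lay above all oEV-ctrl libraries, and oEV-ctrl 2 was the lowest. The ratio of the group means was 1.82, and the log2 fold change of 0.88 was the furthest from 0 among the members (SE 0.24, 95% interval 0.35 to 1.41). With an unadjusted p-value of 0.00415 and an adjusted one of 0.164 (limma) it did not pass the test over all genes. Relative to all genes it was 0.70.

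The ratio of *H2afz* to *H2afx* within a library was 20.0, 24.2 and 29.3 in oEV-EMT and 45.1, 58.3 and 38.6 in oEV-ctrl, without overlap. On the log2 scale the difference was -0.92 (SE 0.23; n = 3 libraries each, exact permutation test, p = 0.1, adjusted p = 0.2 over 4 ratios). This ratio and that of *H2afz* to *H2afv* share *H2afz*, and *H2afv* and *H2afx* themselves did not overlap between the groups. The ratios are thus not separate observations, and the share of all gene pairs whose ratios separate was not computed. Of the 50-base stretches of *H2afx*, 6.14% also occur in *Hist1h2ao*, the replication-dependent H2A gene with the highest level. In all, 32 rows share at least 10% of their own stretches with *H2afx*, and *H2afx* held 7.55% of their joint FPKM. The joint FPKM had a log2 fold change of -0.34, the opposite direction. *Hist1h2ao* and *Hist1h2ap*, at means of 199 and 179 FPKM against 37.2 for *H2afx*, themselves had log2 fold changes of -0.43 and -0.38. The joint value mainly follows such rows and cannot show the direction of *H2afx*. Reads of the shared stretches could be assigned to any of these genes. The value of *H2afx* is therefore uncertain, and libraries made with oligo(dT) beads hold its stem-loop mRNA in part. With each library left out in turn it lay between 0.64, without oEV-ctrl 2, and 1.00, without oEV-ctrl 1.

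A further pair of H2A variants has separate roles. H2A.J is an H2A variant known from senescent and epithelial cells, and macroH2A1 carries a large macro domain and is known from silent chromatin, the inactive X chromosome included. *H2afj* (ENSMUSG00000060032, chromosome 6, 136808244 to 136810074, plus strand) had an FPKM of 18.2, 25.6 and 18.6 in oEV-EMT and 18.7, 14.6 and 22.5 in oEV-ctrl. The groups overlapped, and the log2 fold change was 0.16 (SE 0.24, adjusted p = 0.784 from limma), or -0.02 relative to all genes.

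*H2afy* (ENSMUSG00000015937), the gene of macroH2A1, lies on the minus strand of chromosome 13 from 56073619 to 56136361. It had an FPKM of 63.3, 63.5 and 49.1 in oEV-EMT and 77.6, 69.5 and 67.2 in oEV-ctrl. It was the member in which every oEV-EMT library lay below every oEV-ctrl library, with oEV-EMT 3 the lowest. The log2 fold change was -0.29 (SE 0.20, 95% interval -0.73 to 0.16, unadjusted p = 0.179, adjusted p = 0.514 from limma), and -0.46 relative to all genes. The unadjusted p under median-of-ratios scaling is given above.

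H3.3 is the H3 variant that HIRA places in active genes and that ATRX with DAXX places in heterochromatin. *H3f3a* and *H3f3b* encode the same protein. *H3f3a* (ENSMUSG00000060743) lies on the minus strand of chromosome 1 from 180800832 to 180813943, and *H3f3b* (ENSMUSG00000016559) on the minus strand of chromosome 11 from 116021912 to 116027962.

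The FPKM of *H3f3a* was 239, 297 and 218 in oEV-EMT and 173, 247 and 231 in oEV-ctrl. That of *H3f3b* was 601, 1118 and 992 in oEV-EMT and 1152, 831 and 1006 in oEV-ctrl. Both genes overlapped between the groups, and *H3f3b* was the higher in each library, with 71.6% to 87.0% of their summed FPKM. The log2 fold changes were 0.21 (SE 0.21, adjusted p = 0.662) for *H3f3a* and -0.18 (SE 0.25, adjusted p = 0.765) for *H3f3b* (limma). Relative to all genes they were 0.04 and -0.35.

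The ratio of *H3f3a* to *H3f3b* was 0.397, 0.265 and 0.219 in oEV-EMT and 0.15, 0.298 and 0.229 in oEV-ctrl. It overlapped, and its log2 difference of 0.39 had an SE of 0.38 (n = 3 libraries each, exact permutation test, p = 0.5, adjusted p = 0.667). Both extremes came from libraries numbered 1, oEV-EMT 1 the highest and oEV-ctrl 1 the lowest. For *H3f3a*, 23 rows share at least 10% of their own stretches with it, *H3f3c* with 67.7% of its own the most abundant of them at a mean of 82.3 FPKM, and *H3f3a* held 60.0% of their joint FPKM. For *H3f3b* it was 2 rows and 88.7%. The levels of both, and their ratio, are uncertain to that extent.

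CENP-A replaces H3 in the nucleosomes of centromeres and marks where the kinetochore forms. *Cenpa* (ENSMUSG00000029177) is on chromosome 5, plus strand, from 30666777 to 30674830. Its FPKM was 155, 186 and 143 in oEV-EMT and 131, 101 and 114 in oEV-ctrl. Every oEV-EMT library lay above every oEV-ctrl library. The log2 fold change was 0.48 (SE 0.20, 95% interval 0.04 to 0.93, unadjusted p = 0.0350, adjusted p = 0.288 from limma), or 0.31 relative to all genes.

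H1.0 is the linker histone of differentiated and resting cells, and H1X is a linker histone found in most cell types. *H1f0* (ENSMUSG00000096210, chromosome 15, 79028450 to 79030504, plus strand) is a single exon. Its FPKM was 27.4, 90.4 and 75.4 in oEV-EMT and 79.3, 49.5 and 56.0 in oEV-ctrl. The groups overlapped, and oEV-EMT held both the highest library and the lowest, which was oEV-EMT 1. *H1f0* had the widest interval among the members, with a log2 fold change of -0.07 (SE 0.42, 95% interval -1.04 to 0.89, adjusted p = 0.949 from limma), or -0.24 relative to all genes. Without oEV-EMT 1 the log2 fold change was 0.45, and without oEV-EMT 2 it was -0.40.

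*H1fx* (ENSMUSG00000044927, chromosome 6, 87980421 to 87981637, minus strand) had an FPKM of 0.691, 0.371 and 0.297 in oEV-EMT. In oEV-ctrl it had 0.681 in one library and was listed at 0 in the others. It lay under the filter on low values and was not tested. The ratio of *H1f0* to *H1fx*, which rests on the pseudocount of 1, overlapped, with a log2 difference of -0.35 (SE 0.64; n = 3 libraries each, exact permutation test, p = 1). *Gm47286* overlaps *H1fx* on the same strand, and *Gm5577*, on the opposite strand, shares 14.0% of its stretches.

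**Figure D3:**
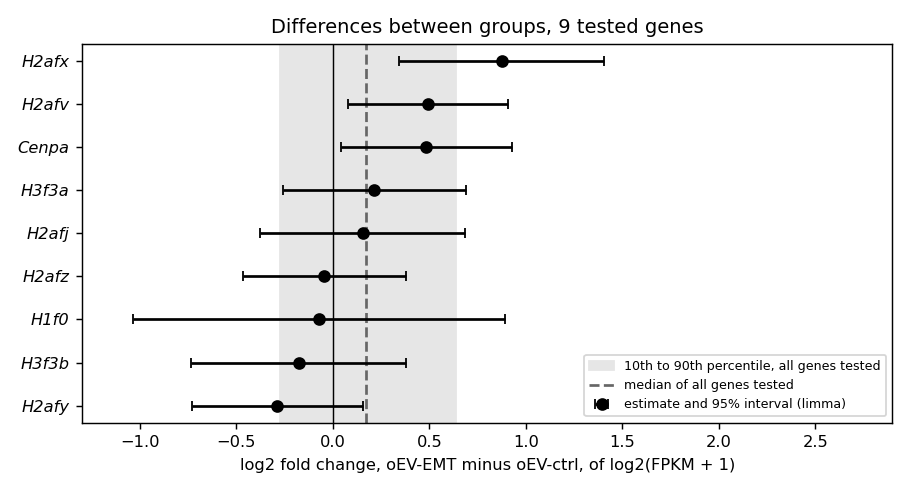
Log2 fold change of the 9 tested genes, oEV-EMT minus oEV-ctrl, with the 95% interval from limma as bars, the median of all 11924 genes tested as a dashed line and their 10th to 90th percentile as a grey band. The intervals of *H2afx*, *H2afv* and *Cenpa* lie above 0, *H2afx* alone has its estimate above the band, and that of *H2afy* alone lies below it.

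The genes that load, exchange, modify and read histones were counted in 5 lists by role. Of their 44 tested genes 0 passed both thresholds. By an unadjusted p-value up to 0.05, 6 were higher (13.6%, against 12.8% of all genes) and 0 lower (against 2.55%), so that the share of higher genes was near the background. Among the 11 genes of H2A.Z exchange, 3 were higher and 0 lower by that p, and in the same 3 every oEV-EMT library lay above every oEV-ctrl library, as in 18.1% of all genes. The median log2 fold change of the list was 0.28, or 0.11 relative to all genes. *Znhit1*, a subunit of the SRCAP complex, had 33.9, 37.4 and 29.9 FPKM in oEV-EMT and 19.5, 14.5 and 21.4 in oEV-ctrl. All its oEV-EMT libraries lay above the oEV-ctrl libraries, with a log2 fold change of 0.85 (adjusted p = 0.164 from limma). *Vps72*, which encodes the H2A.Z-binding subunit YL1, and *Ruvbl2*, an ATPase of the same complexes, did not overlap either, at 0.74 (adjusted p = 0.222) and 0.65 (adjusted p = 0.259).

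Of the 6 genes of CENP-A loading and reading, 1 was higher by that p, where 12.8% of all genes were, and in 2 every oEV-EMT library lay above, where 18.1% were. The median was 0.29, or 0.12 relative to all genes. *Cenpn*, whose protein binds the CENP-A nucleosome, had 34.3, 41.3 and 35.2 FPKM in oEV-EMT and 21.9, 25.6 and 26.1 in oEV-ctrl. Its groups did not overlap, with a log2 fold change of 0.57 (adjusted p = 0.232 from limma). *Mis18a*, a subunit of the complex that primes centromeres for CENP-A, did not overlap either, at 0.29 (adjusted p = 0.485), whereas *Oip5*, of the same complex, overlapped with 0.77 (adjusted p = 0.440).

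Of the 8 genes of H3.3 deposition, 1 was higher by that p, where 12.8% of all genes were. The median was 0.02, or -0.15 relative to all genes. *Asf1a*, which hands H3 and H4 to HIRA, had 56.4, 67.7 and 79.7 FPKM in oEV-EMT and 43.5, 49.8 and 52.0 in oEV-ctrl, without overlap, and a log2 fold change of 0.47 (adjusted p = 0.316 from limma). *Daxx* and *Ubn1*, partners of ATRX and of HIRA, overlapped at -0.39 (adjusted p = 0.560) and -0.25 (adjusted p = 0.732).

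Among the 11 tested of 12 replication-coupled and general chaperones, 1 was higher by that p, where 12.8% of all genes were. The median was 0.19, or 0.02 relative to all genes. *Chaf1b* and *Chaf1a* encode subunits of CAF-1, which places H3 and H4 behind the replication fork. *Chaf1b* had 23.0, 17.8 and 16.4 FPKM in oEV-EMT and 9.17, 7.61 and 15.9 in oEV-ctrl, without overlap, and a log2 fold change of 0.80 (adjusted p = 0.232 from limma). *Chaf1a* overlapped at 0.34 (adjusted p = 0.576), as did *Npm3*, a nucleoplasmin family chaperone, at 0.47 (adjusted p = 0.440).

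The 8 kinases and readers of H2AX had a median of -0.12, or -0.30 relative to all genes. By that p 0 were higher or lower, where 12.8% of all genes were higher and 2.55% lower. *Rnf168* and *Rnf8*, ubiquitin ligases that act after H2AX is phosphorylated, overlapped at -0.36 (adjusted p = 0.545 from limma) and 0.30 (adjusted p = 0.570), as did *Mdc1*, which binds phosphorylated H2AX, at 0.18 (adjusted p = 0.685).

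Of 13 other replication-independent and linker histones, 5 were tested, with a median of -0.24, or -0.41 relative to all genes. *Hist1h1b*, a replication-dependent linker histone, had 11.4, 21.4 and 22.7 FPKM in oEV-EMT and 30.7, 25.5 and 27.1 in oEV-ctrl. All its oEV-EMT libraries lay below, oEV-EMT 1 the lowest, with a log2 fold change of -0.61 (unadjusted p = 0.0458, adjusted p = 0.315 from limma). The groups overlapped for *H3f3c*, an H3.3-like row, at -0.30 (adjusted p = 0.528) and for *H2afy2*, the gene of macroH2A2, at -0.18 (adjusted p = 0.740).

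**Figure D4:**
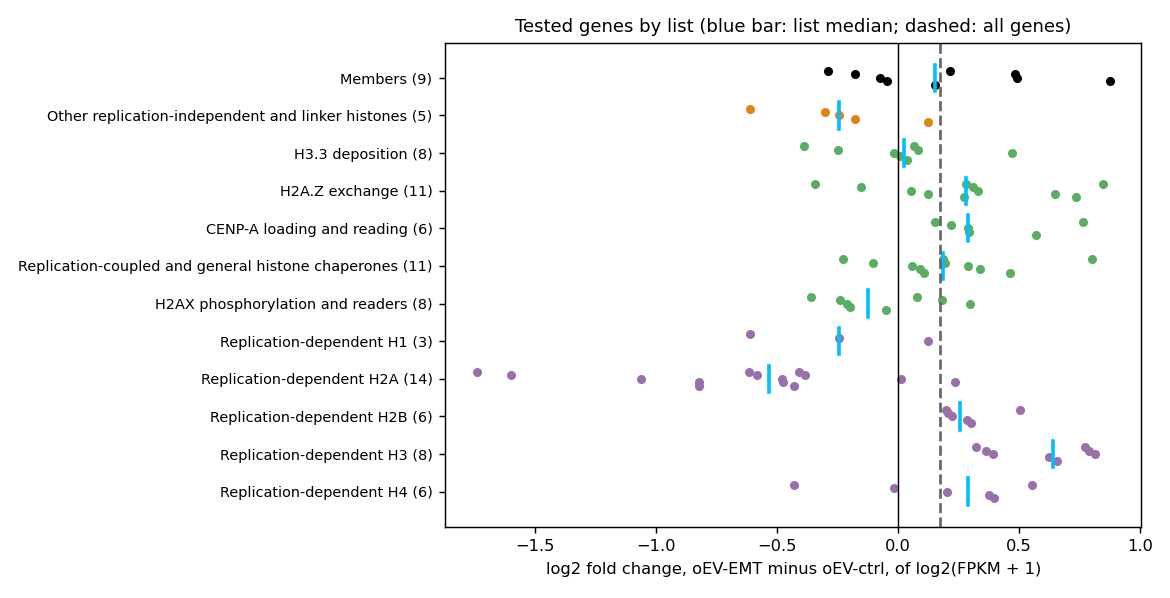
Log2 fold change of each tested gene, oEV-EMT minus oEV-ctrl, by list, with the members in black, other replication-independent and linker histones in orange, genes that handle histones in green and replication-dependent histones in purple. *Hist1h1* genes stand in both an orange and a purple list. A blue bar marks the median of each list and the dashed line the median of all genes at 0.17, and the replication-dependent H2A genes reach the lowest values and the H3 genes lie wholly above 0.

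Replication-dependent histone genes were set beside the variants of the same kind. Of 68 such genes, 37 were tested, and 0 passed both thresholds. Since their mRNAs mostly end without a poly(A) tail, libraries made with oligo(dT) beads hold them in part, and many are near copies that share reads. Of the 14 tested H2A genes 12 lay below 0, 7 of them at an unadjusted p of at most 0.05 (background 2.55%), with a median of -0.53, or -0.70 relative to all genes. Of the H2A variants, *H2afy* and *H2afz* also lay below 0, and *H2afx*, *H2afv* and *H2afj* above it, in the deposited values. *H2afz* lay above 0 when scaled to a common sum, and *H2afj* below 0 under median-of-ratios and upper quartile scaling. The joint value of *H2afx* and the rows sharing its sequence lay below 0, but replication-dependent H2A genes are its most abundant rows. *Hist1h2ao*, the most abundant, had a log2 fold change of -0.43 (adjusted p = 0.362 from limma). All 8 tested H3 genes lay above 0, 5 of them by that p (background 12.8%), with a median of 0.64, or 0.47 relative to all genes, where the H3.3 genes lay on both sides of 0 in the deposited values. *Hist1h3h* had 0.79 (adjusted p = 0.208). These counts depend on the filter on low values. *Hist1h3d* passed it only through oEV-EMT, and *Hist1h2af* and *Hist1h2aj* only through oEV-ctrl. *Hist1h3a* reached the filter value in every oEV-EMT library but in oEV-ctrl 3 alone. *Hist1h2al* and *Hist1h2an* reached it in every oEV-ctrl library but in oEV-EMT 2 alone. These 4 H2A genes are among the 7 counted above, and *Hist1h3a* is among the 5 H3 genes. Both counts are thus in part set by the filter and cannot be read against the background. Of the untested H3 rows, *Hist2h3c1* and *Hist2h3c2* had lower means in oEV-EMT, at 0.657 against 1.37 and 0.536 against 0.806 FPKM. *Hist1h3f* and *Hist2h3b*, also untested, had higher ones. The directions of the H2A and H3 medians were kept under each scaling tried. With a filter of 5 in 3 libraries the H2A median was -0.48 and no H3 gene was left. The difference between variants and replication-dependent genes was not tested. The H2B genes had a median of 0.26, or 0.08 relative to all genes, with *Hist1h2bc* at 0.21 (adjusted p = 0.738). The H4 genes had one of 0.29, or 0.12 relative, with *Hist1h4d* at -0.02 (adjusted p = 0.982). With the filter of 5 the H4 median turned to -0.22, or -0.42 relative, and the H2B median was 0.21. The median of all replication-dependent genes moved from 0.20 to -0.43. The 3 tested H1 genes, which also stand in the list of other histones above, had a median of -0.24, or -0.41 relative to all genes.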

How the data were processed

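Paired-end libraries were made from polyadenylated RNA of 6 pools of 10 mouse blastocysts. The authors aligned the reads and quantified transcripts with StringTie. The submitters' processing notes name the build mm10, and the aligner is not given in the sources used here. They deposited 1 value per gene and library. The methods call these TPM, but the deposited values sum to more than 1000000 and differ between libraries, so they were treated as FPKM. FPKM keep no read totals, and no counting interval was computed.

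Genes reaching an FPKM of 1 in 3 or more libraries were compared as log2(FPKM + 1), without further scaling, with limma 3.58.1 in R 4.3.3 (trended and robust variance, two-sided). The fold changes of genes with low values are understated on this scale. P-values were adjusted by the Benjamini-Hochberg method over all 11924 genes. For ratios within libraries an exact two-sided permutation test was run in scipy 1.17.1. The limma procedure was tested on simulated data. Sample groups followed the labels. The members and lists were chosen with earlier results of these data known. All members were named, with the 3 genes of smallest p in each list, the most abundant replication-dependent gene of each histone kind and the 2 most abundant rows sharing sequence with a member, of which those with a bearing on a result are given.

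Positions are those of GENCODE M21 (GRCm38). Rows sharing identical stretches of 50 bases with a member were counted when these were at least 10% of their own. Promoter sequences are from RefSeq (GRCm38.p6), where 9 of the 10 members were matched by symbol or synonym. Alternatives covered scaling, pseudocount, filter, variance model, a replicate block, summing over rows that share sequence and leaving out each library. A weighting of libraries by quality was chosen after seeing the data. Figures were drawn with matplotlib 3.10.9.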

Additional observations from a re-analysis of the deposited data

How the results depend on the processing

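Of the 9 tested members, *H2afv*, *H2afy* and *Cenpa* kept their direction under all 16 alternatives. Their groups do not overlap, as in *H2afx*, so only the scalings and the summing of rows could have reversed it. Leaving out or weighting libraries and the other pseudocount cannot reverse such genes. The filters, the variance model and the replicate block return the same estimate. *H2afx* kept it under all but the summing of rows that share sequence, where the joint value mainly follows more abundant rows. Under each alternative 0 members passed both thresholds, except that 3 were counted when an unadjusted p was used without the fold change threshold. The adjusted p-values of the members ranged from 0.0628, for *H2afx*, to 0.9996 over the alternatives (limma). The number of members with an unadjusted p of at most 0.05 was 1 without oEV-EMT 2, without oEV-ctrl 2 and without oEV-ctrl 3, and 2 without oEV-EMT 3. Some log2 fold changes reversed. After scaling to a sum of 1000000 *H2afz* was at 0.049 and *H1f0* at 0.021, after median-of-ratios scaling *H2afj* was at -0.025, and after upper quartile scaling *H2afj* was at -0.098 and *H3f3a* at -0.051. With sequence-sharing rows summed, the joint value of *H2afx* and these rows was at -0.342. With libraries weighted by quality *H2afz* was at 0.037, *H3f3b* at 0.080 and *H1f0* at 0.419. The cause was not tested. With each library left out, the range was -0.126 to 0.065 for *H2afz*, -0.354 to 0.093 for *H3f3b*, -0.396 to 0.447 for *H1f0*, 0.427 to 0.583 for *H2afv* and 0.377 to 0.580 for *Cenpa*. The log2 difference of the ratio of *H2afz* to *H2afv* then lay between -0.594 and -0.459, and that of *H1f0* to *H1fx* between -0.712 and 0.281, the only positive value being the one without oEV-EMT 1. For *H3f3a* to *H3f3b* it lay between 0.125 and 0.618. With a pseudocount of 0.1 the difference of *H1f0* to *H1fx* was -1.49. With 2 libraries left in a group the exact tests cannot reach 0.05.

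Over all genes, 0 passed both thresholds in the deposited values, 12 higher and 5 lower did without oEV-ctrl 3, 4 without oEV-EMT 1 and 1 without oEV-EMT 3. With libraries weighted by quality it was 73 higher and 31 lower. Of the replication-dependent histones 1 passed with that weighting, and between 0 and 2 with each library left out, 2 without oEV-ctrl 3. The deviations of libraries with the same number in both groups had correlations of 0.119, -0.044 and 0.039. Those of libraries with unlike numbers lay between -0.135 and 0.122. With 3 libraries per group such values cannot decide whether the numbers pair the libraries. With the replicate number as a block, 13 genes were higher and 8 lower past both thresholds, 0 of them members or partner genes and 1 a replication-dependent histone, and 1 member kept an unadjusted p of at most 0.05. FPKM without read totals limit what can be said of *H1fx*.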
